A study of Mus musculus with 14 samples.

Results

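The genes described here are 43 mouse genes listed for ribosome biogenesis. Most of them encode proteins of the nucleolus, the part of the nucleus where ribosomal RNA is made and processed. They were picked by name and function from a table of 52636 genes, with earlier results of these data known. All 43 were among the 11994 genes that passed the filter on low counts. By role, 5 belong to RNA polymerase I and its factors, 3 to the box C/D and 4 to the box H/ACA small nucleolar ribonucleoproteins (snoRNPs), 5 to nucleolar scaffolds and multifunctional factors, 11 to the small subunit processome and 40S maturation, and 11 to large subunit assembly. The other 4 are often listed with them but do not act in the nucleolus: Odc1 and Srm make polyamines, and Hspd1 and Hspe1 form the mitochondrial chaperonin. They count among the 43 unless the 39 genes without them are named.

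The libraries came from a mouse model of acute myeloid leukemia named I1DN, which carries mutant IDH1 according to the title of the series; the labels do not spell out the alleles behind the name. Mice transplanted with I1DN cells received AG120 (ivosidenib, an inhibitor of mutant IDH1) or vehicle for 5 days (3 and 3 libraries) or 14 days (2 and 2), and 4 further mice were given AG120 for 28 days and sampled at relapse. From each mouse, progenitors bearing cKit and lacking CD11b were sorted, and their RNA was read at the 3' end of each transcript (QuantSeq). All groups share the transplanted leukemia, no group holds normal progenitors, and relapse has no vehicle group of its own time. Strain, age and the interval from the end of treatment to relapse are not stated by the labels.

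Making a ribosome begins with RNA polymerase I, which copies the ribosomal DNA into one long precursor. Small nucleolar RNAs guide chemical changes to that precursor, with box C/D particles placing methyl groups and box H/ACA particles turning uridines into pseudouridines. The small subunit processome folds and cuts the part that becomes the 40S subunit, and a separate set of assembly factors matures the 60S subunit. Many of these genes are textbook targets of the transcription factor MYC, which binds the E-box letters CACGTG, and their output is tied to growth and division in blood progenitors.

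Library totals ran from 4995738 to 8691708 counts, of which ribosomal RNA gene models took 50.9% to 74.8%, leaving 1259982 to 3358874 other counts. The ribosomal RNA share was 62.5% to 65.3% in the 5-day AG120 libraries and 50.9% to 59.8% in their vehicle libraries. At 14 days it was 74.8% and 63.1% in AG120 replicates 1 and 2, and 68.1% and 55.8% in vehicle replicates 1 and 2. That AG120 replicate 1 had both the highest share and the fewest other counts, 1259982, of the 14 libraries. The part of the ribosomal RNA share and of depth in the results was not tested. Levels are given as CPM, the count divided by the library total after that total was scaled with edgeR's TMM factors. Markers of other cell types also differed with treatment. The summed CPM of 17 erythroid markers was 807 to 929 in AG120 at 5 days against 117 to 189 in vehicle, and 2110 to 2412 against 162 to 206 at 14 days. That of 12 granulocyte markers was 471 to 510 against 1253 to 2050 at 5 days, and 1451 to 1863 against 2007 to 2115 at 14 days. Megakaryocyte markers summed to 47.3 to 71.0 CPM against 382 to 473 at 5 days and 93.0 to 100.1 against 375 to 405 at 14 days, and 4 of the 6 fell at 5 days. T and NK cell markers, of which 1 of 7 passed the filter on low counts, summed to 9.90 to 12.0 CPM against 36.0 to 44.8 at 5 days and 3.58 to 4.00 against 39.6 to 41.1 at 14 days. Monocyte, mast cell and basophil, B cell, and stromal and endothelial marker sums were also lower in every AG120 library than in every vehicle library of its day. Of the 6 B cell markers 1 passed the filter, as did 1 of the 6 stromal and endothelial markers. Both sums were small. B cell markers summed to 0 to 1.06 CPM in AG120 libraries and 1.75 to 2.21 CPM in vehicle libraries of both days. Stromal and endothelial markers summed to 0 to 2.18 CPM in AG120 libraries and 2.63 to 6.21 CPM in vehicle libraries. The mitochondrial share of counts outside ribosomal RNA was 0.871% to 1.02% under AG120 against 0.626% to 0.801% at 5 days and 1.02% to 1.14% against 0.706% to 0.732% at 14 days. None of the erythroid, granulocyte or megakaryocyte markers was at 0 in every library. At 5 days 11 of the 17 erythroid markers rose and none fell, and 5 of the 12 granulocyte markers fell and none rose. The granulocyte markers did not all follow their sum at 14 days. Ltf, Ngp, Camp and S100a8 had positive log2 changes there, and none of them passed. Cd34, a progenitor surface marker, stood at 11.2, 11.4 and 7.65 CPM in AG120 at 5 days against 126, 143 and 146 in vehicle, and Kit, used for the sort, at 11.6 and 11.6 CPM in AG120 at 14 days against 34.9 and 36.7 in vehicle. Kit differed less at 5 days, at 23.6 to 33.0 CPM under AG120 against 33.4 to 37.7 CPM in vehicle. In bulk RNA like this, a change in the mix of cells and a change of RNA per cell cannot be told apart. The part of these marker and mitochondrial differences in the results below was not tested.

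Promoter sequence was looked at first, since E-boxes are the feature these genes are best known to share. RefSeq start-site windows (GRCm38.p6, from 250 bases before to 50 bases after the start) were found for 38 of the 43 genes; none was matched for Fbl, Npm1, Srm, Bop1 and Rrp12. The E-box CACGTG, which reads the same on both strands, stood in the window of 12 of the 38 genes (31.6%). It stood in 1045 of the 8649 tested genes with such a window (12.1%) and in 7.15% of all 32851 windows. The variant CACGCG, searched on both strands, was present for 13 of the 38 (34.2%) against 20.6% of tested genes, and CATGTG for 8 (21.1%) against 9.89%. These are matches of letters, not measured binding, and several windows belong to genes with more than 1 start site. The 12 genes carried 13 E-boxes, of which 4 lay before the start site and 9 between bases 3 and 41 after it.

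The E-boxes before the start site are shown because they lie upstream of the gene, as a promoter element would, and because Rrn3 was the 1 gene with 2. Each line is read 5' to 3' on the gene's own strand, with the E-box in capitals. The lines for Nop2 and the nearer box of Rrn3 give the 100 bases that end just before the start site. The line for Hspd1 gives 30 bases around its box, which lies 80 bases before the start. That line was kept short because the 100 bases before the start overlap an annotated exon of a neighbouring gene.
Nop2 (chr6:125131783-125131882, + strand): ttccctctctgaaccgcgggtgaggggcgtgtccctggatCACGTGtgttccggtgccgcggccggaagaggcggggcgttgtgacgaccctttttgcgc
Rrn3, nearer box (chr16:13780599-13780698, + strand): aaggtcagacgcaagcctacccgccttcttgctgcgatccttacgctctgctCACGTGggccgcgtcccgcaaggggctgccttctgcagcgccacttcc
Rrn3, farther box (chr16:13780449-13780548, + strand): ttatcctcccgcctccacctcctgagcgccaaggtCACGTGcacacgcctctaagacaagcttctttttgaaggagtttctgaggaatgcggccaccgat
Hspd1 (chr1:55088306-55088335, - strand): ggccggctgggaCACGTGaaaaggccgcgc
Hspd1 encodes the mitochondrial chaperonin, Nop2 a methyltransferase of the large subunit RNA, and Rrn3 the factor that brings RNA polymerase I to the ribosomal DNA. The other 9 boxes are just inside the transcript, and 5 of them are shown as 30 bases around the box as examples from genes of both subunit pathways, chosen after the boxes were seen.
Pes1 (chr11:3963965-3963994, + strand): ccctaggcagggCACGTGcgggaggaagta
Utp4 (chr8:106893643-106893672, + strand): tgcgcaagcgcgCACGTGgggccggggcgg
Wdr43 (chr17:71616220-71616249, + strand): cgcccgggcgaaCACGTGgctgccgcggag
Tsr1 (chr11:74898092-74898121, + strand): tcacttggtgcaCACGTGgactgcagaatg
Pno1 (chr11:17211540-17211569, - strand): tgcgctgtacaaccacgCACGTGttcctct
The box of Pes1, a large subunit assembly factor, began at base 3, those of the processome genes Utp4 and Wdr43 at bases 16 and 18, and those of the 40S maturation factors Tsr1 and Pno1 at bases 25 and 38. At 5 days the 12 genes had a median log2 change of 0.85 with all 12 higher under AG120, and the 26 genes with a window but no such box a median of 0.90 with 25 higher.

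Under AG120 the whole set was higher at both times. Summed over the 43 genes, the level was 11261, 9832 and 10476 CPM in the 5-day AG120 libraries and 4805, 5188 and 5195 CPM in their vehicle libraries. At 14 days the sums were 10139 and 11140 CPM against 5607 and 5469. In relapse they were 6429, 3615, 4704 and 6001 CPM. Without the 4 polyamine and chaperonin genes the sums of the other 39 were 9569, 8340 and 8866 against 4258, 4606 and 4569 CPM at 5 days, 8759 and 9343 against 4963 and 4825 CPM at 14 days, and 5710, 3306, 4255 and 5370.4 CPM in relapse. Every AG120 library thus lay above every vehicle and every relapse library, and the relapse libraries spread to both sides of the vehicle range. As a share of counts outside ribosomal RNA, the set took 2.72% ± 0.149 (SD, n = 3) under AG120 at 5 days, 1.40% ± 0.0493 (SD, n = 3) in vehicle, 2.70% and 2.82% under AG120 at 14 days, 1.51% and 1.57% in vehicle, and 1.42% ± 0.310 (SD, n = 4) in relapse.

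**Figure D1:**
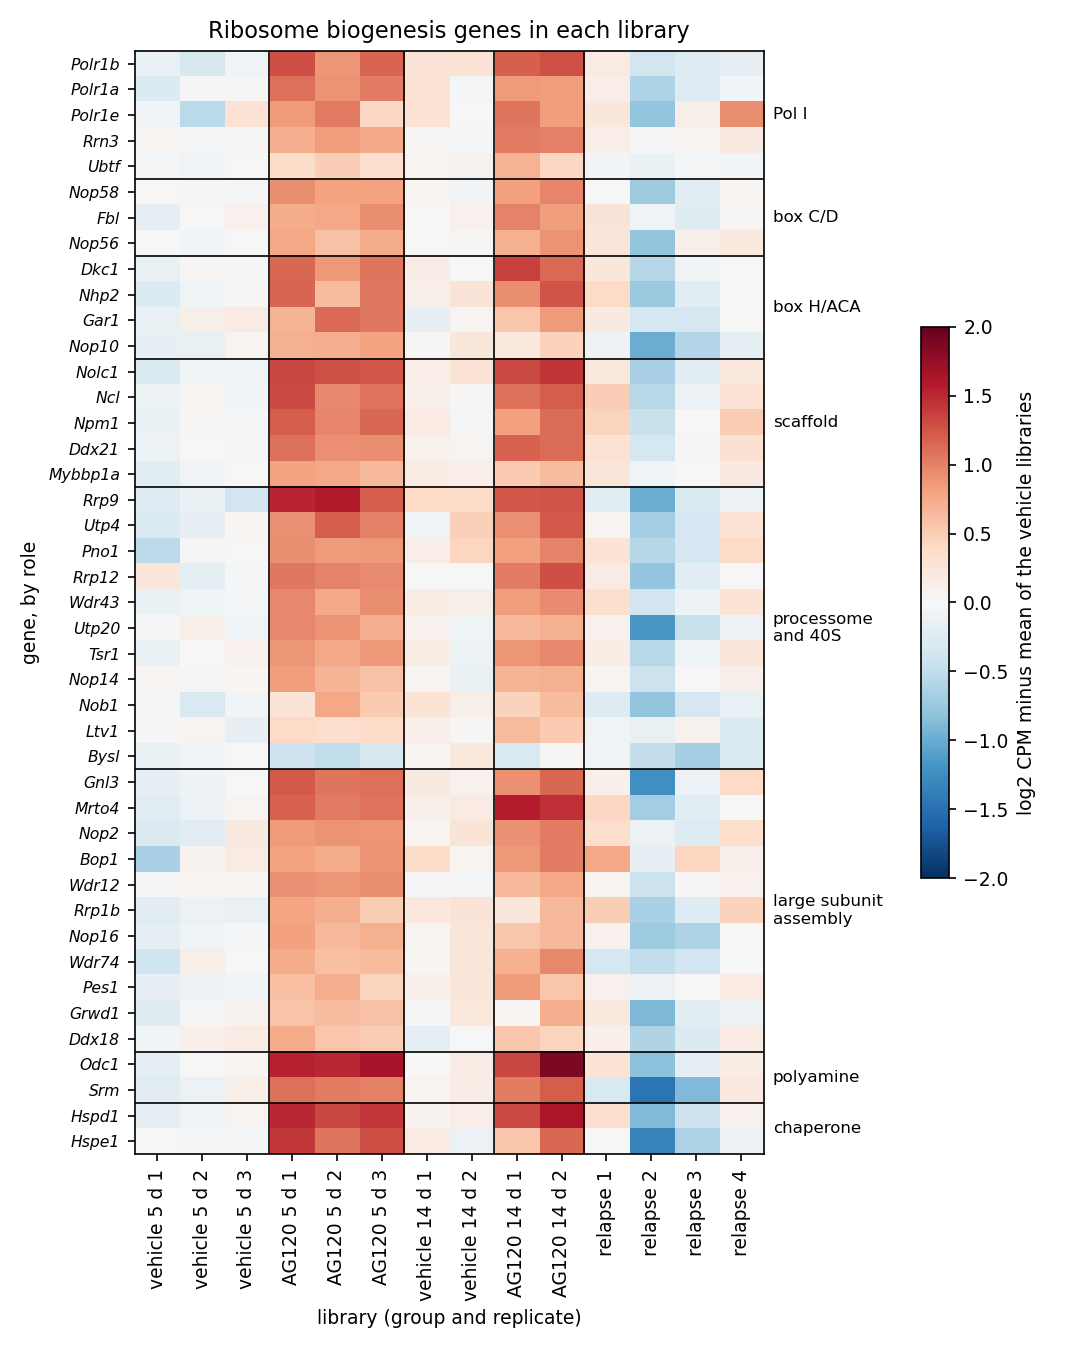
Heat map of the 43 genes (rows, grouped by role and ordered within a role by the 5-day change) in the 14 libraries (columns); color is log2 CPM minus the mean of that gene over the 5 vehicle libraries. The 5 AG120 columns are red for all genes but Bysl, and relapse replicate 2 is below the vehicle mean for all 43 genes.

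After 5 days of AG120, 42 of the 43 genes rose and none fell at an adjusted p under 0.05 (edgeR quasi-likelihood test over all 14 libraries, Benjamini-Hochberg adjustment over 11994 genes). Of all genes tested, 20.1% were called higher and 19.3% lower. The median log2 change of the 43 was 0.90, against -0.00 over all genes tested, and the changes ran from -0.32 for Bysl to 1.71 for Rrp9. For 42 genes all 3 AG120 libraries were above all 3 vehicle libraries, which held for 30.2% of all genes tested. At 14 days 32 genes rose and none fell, where 16.8% of all genes were called higher and 17.9% lower, and the median was 0.79 against -0.01. Of the 39 genes without the polyamine and chaperonin genes 38 rose at 5 days, with a median of 0.86, and 29 at 14 days, with a median of 0.77. In 39 of the 43 every AG120 library stood above every vehicle library at 14 days (34.2% of all genes tested). The 11 genes that did not pass at 14 days were Polr1e, Nop10, Utp20, Nob1, Pno1, Bysl, Nop16, Bop1, Rrp1b, Grwd1 and Hspe1. With 2 libraries a group the 14-day count depended on single mice: it was 20 without AG120 replicate 2 at 14 days and also 20 without vehicle replicate 1 at 14 days, and 36 without relapse replicate 2, a library of neither group. Of the 32 genes 17 passed with each library left out in turn; the other 15 were Gnl3, Ddx18, Polr1a, Ubtf, Mybbp1a, Ltv1, Pes1, Srm, Nop56, Nhp2, Gar1, Npm1, Utp4, Nop2 and Wdr74. Without a filter on low counts Gnl3, Ddx18, Ltv1, Mybbp1a, Pes1, Ubtf and Wdr74 did not pass at 14 days.

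**Figure D2:**
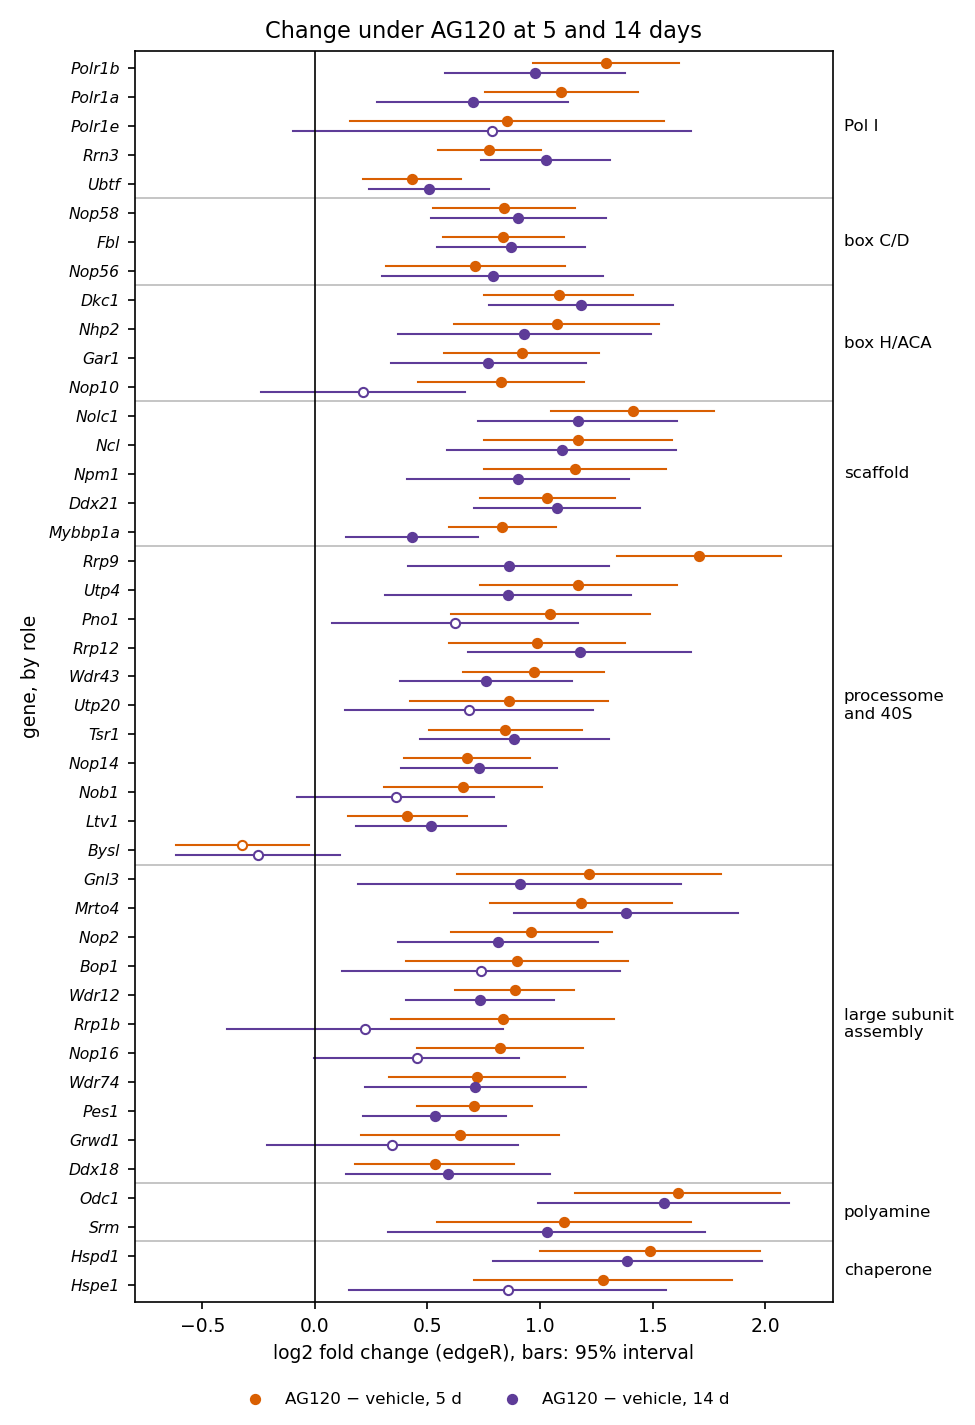
Log2 fold change of each gene under AG120 (dot) with its 95% interval (line) at 5 days (orange) and 14 days (purple); filled dots passed an adjusted p under 0.05 and open dots did not. All genes but Bysl lie to the right of 0 at both times.

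RNA polymerase I genes had a median log2 change of 0.85 at 5 days, with 5 of 5 passing, and 0.79 at 14 days, with 4 of 5. Polr1b, the second catalytic subunit of the enzyme, was at 34.2, 25.7 and 31.4 CPM in the 5-day AG120 libraries and 12.6, 11.2 and 13.4 CPM in vehicle. At 14 days it was at 31.9 and 34.0 CPM against 16.7 and 16.8. The treated and vehicle libraries did not overlap at either time, and the log2 change was 1.29 (SE 0.15, adjusted p = 6.16e-06) at 5 days and 0.98 (SE 0.19, adjusted p = 0.00076) at 14 days. Ubtf, which coats active ribosomal DNA, had the smallest change of the role. Its levels were 196, 213 and 192 CPM under AG120 and 148, 144 and 153 CPM in vehicle at 5 days, and 247 and 204 against 157 and 159 CPM at 14 days. Though small, the shift separated the groups at both times, with log2 changes of 0.43 (SE 0.10, adjusted p = 0.00324) and 0.51 (SE 0.13, adjusted p = 0.00514). Polr1a, the catalytic subunit, rose by 1.09 at 5 days and 0.70 at 14 days on the log2 scale, and Rrn3 by 0.78 and 1.03. Polr1e, a subunit that aids initiation, was counted at 6.69, 7.55 and 4.94 CPM against 3.55, 2.54 and 4.50 CPM at 5 days. It passed narrowly there (log2 change 0.85 (SE 0.33, adjusted p = 0.0499)), and it did not pass with RLE, upper quartile or no composition scaling, without ribosomal RNA models, in DESeq2, in thinned libraries, or without any one of 8 libraries (AG120 and vehicle replicates 1 and 2 at either day).

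All 3 box C/D proteins rose at both times, and by nearly the same amount. Nop58, a core protein that holds the guide RNA, stood at 351, 321 and 321 CPM under AG120 against 185, 188 and 182 CPM in vehicle at 5 days, and at 325 and 363 against 189.9 and 178 CPM at 14 days. Fbl (fibrillarin), the methyltransferase of these particles, was at 320.1, 328 and 364 CPM against 172, 191 and 203 CPM at 5 days and 381 and 342 against 192 and 204 CPM at 14 days. For Nop56, the partner of Nop58, the values were 220.0, 193 and 215 against 129, 123 and 129.6 CPM and 211 and 241 against 130.2 and 131 CPM. In none of the 3 did a treated library come within the vehicle range. The log2 changes at 5 days were 0.84 (SE 0.15, adjusted p = 0.000321) for Nop58, 0.84 (SE 0.13, adjusted p = 7.18e-05) for Fbl and 0.71 (SE 0.19, adjusted p = 0.00695) for Nop56. At 14 days they were 0.90, 0.87 and 0.79. Introns of Nop56 and Nop58 also hold annotated small nucleolar RNA genes, whose RNAs were not analysed here.

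Of the 4 box H/ACA proteins all rose at 5 days and 3 at 14 days. Dkc1 (dyskerin), the pseudouridine synthase, was at 561, 465 and 535 CPM against 229, 257 and 250.1 CPM at 5 days and at 658 and 559.7 against 282 and 254 CPM at 14 days. Groups were apart by far more than their spread, with log2 changes of 1.08 (SE 0.16, adjusted p = 4.94e-05) and 1.18 (SE 0.19, adjusted p = 0.00017). Nop10, a small protein that binds dyskerin, went from 97.6, 98.3 and 113 CPM in vehicle to 178, 181 and 189.7 CPM under AG120 at 5 days, a log2 change of 0.83 (SE 0.17, adjusted p = 0.00137). At 14 days its AG120 libraries, at 127 and 150.4 CPM, overlapped the vehicle libraries, at 111 and 128 CPM, and the change was 0.22 (SE 0.21, adjusted p = 0.464) with a 95% interval of -0.24 to 0.67. Nhp2 and Gar1, the remaining core proteins, rose by 1.07 and 0.92 at 5 days and by 0.93 and 0.77 at 14 days. The 3' end of Dkc1 is overlapped on the opposite strand by 45 exonic bases of Mpp1, which rose by 1.21 and 1.22, so the 2 genes' counts may share reads if the counting ignored strand, which is not stated.

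Nucleolar scaffolds and multifunctional factors rose in 5 of 5 genes at both times. Nolc1, which shuttles snoRNPs to the nucleolus, had the largest change of the role. It was at 259.6, 248 and 244 CPM under AG120 and 85.5, 99.0 and 97.7 CPM in vehicle at 5 days, and at 257 and 277 and 113 and 125 CPM at 14 days, with log2 changes of 1.41 (SE 0.17, adjusted p = 8.09e-06) and 1.17 (SE 0.21, adjusted p = 0.00039). Ncl (nucleolin), a histone chaperone and RNA-binding protein of the nucleolus, was at 3102, 2433 and 2656 CPM against 1162, 1284 and 1197 CPM at 5 days. At 14 days it was at 2668 and 2886 against 1332 and 1265 CPM. The lowest treated library was far above the highest vehicle library each time, and the changes were 1.17 (SE 0.20, adjusted p = 0.000261) and 1.10 (SE 0.24, adjusted p = 0.00242). Mybbp1a, which binds RNA polymerase I and MYB, was at 249, 243 and 224 against 123, 136 and 143 CPM at 5 days and 204 and 220.1 against 159 and 156 CPM at 14 days. Its log2 change of 0.83 (SE 0.11, adjusted p = 2.53e-05) at 5 days stood beside 0.43 (SE 0.14, adjusted p = 0.0225) at 14 days. Npm1 (nucleophosmin), a nucleolar chaperone often mutated in this leukemia, rose by 1.16 and 0.90, and the helicase Ddx21 by 1.03 and 1.08.

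In the small subunit processome and 40S maturation group 10 of 11 genes rose at 5 days and 7 of 11 at 14 days. Rrp9, a processome protein bound to the U3 small nucleolar RNA, lies at chr9:106475963-106485424 (GRCm38, ENSMUSG00000041506) and had the largest 5-day change of the 43 genes. It was counted at 50.0, 51.8 and 40.3 CPM under AG120 and 14.5, 15.8 and 13.3 CPM in vehicle at 5 days, a log2 change of 1.71 (SE 0.17, adjusted p = 1.08e-06). At 14 days it was at 41.1 and 41.3 CPM against 22.8 and 22.6 CPM, a change of 0.86 (SE 0.21, adjusted p = 0.00468). The treated libraries were separate from vehicle at both times, and the vehicle libraries themselves were higher at 14 days than at 5. Other processome members were Utp4, which rose by 1.17 and 0.86, Wdr43 by 0.97 and 0.76, Nop14 by 0.68 and 0.73, and Rrp12, an export and maturation factor, by 0.98 and 1.18. Of the factors that act on the late 40S precursor, Tsr1 rose by 0.85 and 0.89 and Ltv1 by 0.41 and 0.52. Nob1, the nuclease that makes the last cut, its partner Pno1 and the processome protein Utp20 rose by 0.66, 1.05 and 0.86 at 5 days. At 14 days those 3 did not pass, at 0.36 (SE 0.21, adjusted p = 0.195), 0.62 (SE 0.26, adjusted p = 0.0724) and 0.69 (SE 0.26, adjusted p = 0.0508). In thinned libraries the 5-day change of Pno1 was 0.66 and did not pass (edgeR adjusted p = 0.0642). Ltv1 did not pass at 5 days without composition scaling, without a filter, in thinned libraries or without vehicle replicate 3 of that day.

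Bysl, which works with late 40S factors, was the 1 gene with lower levels under AG120, and it did not pass. Its levels were 165, 157 and 178 CPM under AG120 against 199, 207 and 219 CPM in vehicle at 5 days. At 14 days they were 179.7 and 226 against 227 and 257 CPM, and in relapse 211, 159, 139 and 181 CPM. Every AG120 library lay below every vehicle library of its day, though at 14 days by a narrow margin, with log2 changes of -0.32 (SE 0.14, adjusted p = 0.0792) and -0.25 (SE 0.17, adjusted p = 0.272). It was called lower at 5 days with upper quartile scaling, without composition scaling, without a filter, without any one of relapse replicates 1 to 3, and in a fit of that day's libraries alone. Bysl (chr17:47599331-47611492, minus strand) meets the cyclin gene Ccnd3 tail to tail, and 361 exonic bases covering its 3' end are annotated to both genes on opposite strands. Ccnd3 was at 149, 138 and 154 CPM against 198, 202 and 210.4 CPM at 5 days, and fell by 0.47 on the log2 scale (SE 0.14, edgeR adjusted p = 0.0141, and 0.0603 without AG120 replicate 2). Across the 14 libraries the log2 levels of Bysl and Ccnd3 had a Pearson r of 0.97, while Bysl against the other 42 genes had a median r of -0.04; the libraries share groups and scaling, so these are descriptions. Whether the counts were assigned by strand is not stated, so it cannot be told here whether the counts of the 2 genes share reads. Another gene also lies over the 3' end of Polr1e, Nop56, Dkc1, Nhp2, Mybbp1a, Pno1, Tsr1 and Bop1. At 5 and 14 days Wdr92, over Pno1, changed by 1.54 and 0.87, and Spns2, over Mybbp1a, by -1.70 and -2.75. Idh3b, over Nop56, changed by 0.47 and 0.29, and Rmnd5b, over Nhp2, by 0.56 and 0.18. Srr, over Tsr1, changed by 0.16 and 0.14, and Mroh1, over Bop1, by 0.41 and 0.86. Fbxo10, over Polr1e, did not pass the filter on low counts. Leaving out the 8 genes so overlapped and Bysl, 34 of 34 genes rose at 5 days and 27 of 34 at 14 days. This restriction was chosen after the overlaps were seen.

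**Figure D3:**
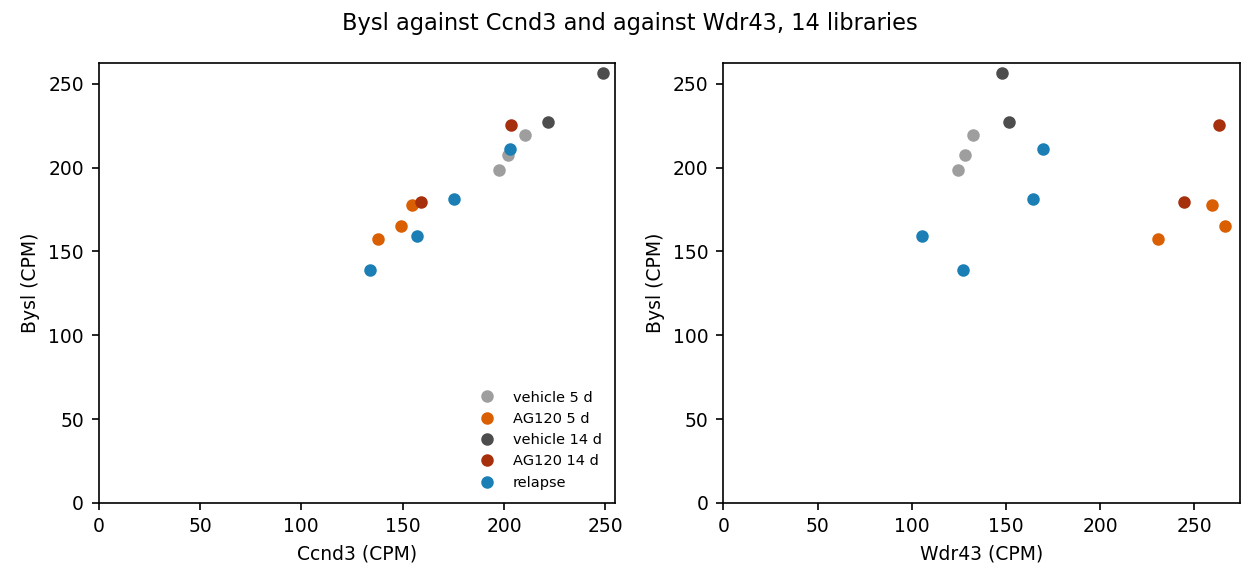
Level of Bysl (CPM, vertical) against Ccnd3 (CPM, left panel) and against Wdr43 (CPM, right panel), 1 dot per library and colors by group. The dots rise together in the left panel; in the right panel the AG120 libraries are the highest for Wdr43 and not for Bysl. Wdr43 was chosen as the gene of the same role with the CPM nearest to that of Bysl.

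Large subunit assembly genes rose in 11 of 11 at 5 days and 7 of 11 at 14 days. Gnl3 (nucleostemin), a GTPase of stem and tumor cells, was at 165, 147 and 151 CPM under AG120 against 63.0, 65.5 and 70.5 CPM at 5 days and 133 and 155 against 79.3 and 74.2 CPM at 14 days. Its log2 changes were 1.22 (SE 0.27, adjusted p = 0.00321) and 0.91 (SE 0.33, adjusted p = 0.0492). The 14-day call of Gnl3 was narrow: it was lost without composition scaling, without ribosomal RNA models, without a filter, in limma-voom, in thinned libraries (adjusted p of 0.0529 to 0.0697), and without any one library other than relapse replicate 2 or 4. Ddx18, a helicase, had the smallest 5-day change of the role, at 30.7, 27.0 and 26.1 CPM against 17.6, 19.6 and 20.6 CPM. Its libraries were separate all the same, also at 14 days with 26.8 and 25.0 against 16.1 and 18.2 CPM, and the changes were 0.53 (SE 0.17, adjusted p = 0.0182) and 0.59 (SE 0.22, adjusted p = 0.0416). Pes1, Bop1 and Wdr12 form one complex needed to process the large subunit RNA; they rose by 0.71, 0.90 and 0.89 at 5 days, and at 14 days Pes1 and Wdr12 rose by 0.53 and 0.73 while Bop1 did not pass at 0.74 (SE 0.29, adjusted p = 0.0598). Mrto4, which paves the way for the ribosomal stalk, rose by 1.18 and 1.38; it has 2 named pseudogenes that could take or give reads. Nop2 rose by 0.96 and 0.81 and Wdr74 by 0.72 and 0.71. Rrp1b, Nop16 and Grwd1 rose by 0.83, 0.82 and 0.65 at 5 days and did not pass at 14 days, at 0.22, 0.45 and 0.34. Grwd1, a histone-binding assembly factor, did not pass at 5 days, at adjusted p of 0.0503 to 0.0823, when any library of that day but vehicle replicate 3 was left out. Ddx18 did not pass at 5 days in thinned libraries or without AG120 replicate 1 or vehicle replicate 1 of that day.

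The polyamine and chaperonin genes showed some of the largest changes. Odc1, the rate-limiting enzyme of polyamine synthesis, was at 199.9, 194 and 215 CPM under AG120 and 60.5, 68.5 and 70.3 CPM in vehicle at 5 days. At 14 days it was at 173 and 250.5 against 68.8 and 76.0 CPM. No treated library came near the vehicle range, and the log2 changes were 1.61 (SE 0.21, adjusted p = 3.49e-05) and 1.55 (SE 0.26, adjusted p = 0.000331). Srm, which makes spermidine, was at 44.1, 41.9 and 41.3 against 17.8, 19.0 and 22.3 CPM at 5 days and 41.7 and 47.5 against 21.2 and 22.6 CPM at 14 days, with changes of 1.11 (SE 0.26, adjusted p = 0.00424) and 1.03 (SE 0.33, adjusted p = 0.025). Hspd1 was at 1112, 992 and 1046 against 343, 371 and 408 CPM at 5 days and 980.5 and 1218 against 413 and 428 CPM at 14 days. Its co-chaperonin Hspe1 was at 337, 264 and 307 against 126, 124 and 124 CPM and 185 and 280.5 against 141 and 117 CPM. In both genes the treated libraries were above vehicle at both times. Hspd1 changed by 1.49 (SE 0.23, adjusted p = 0.000165) and 1.39 (SE 0.28, adjusted p = 0.00159); Hspe1 changed by 1.28 (SE 0.27, adjusted p = 0.00204) at 5 days and did not pass at 14 days, at 0.86 (SE 0.33, adjusted p = 0.0573). The 2 genes lie head to head on chromosome 1 and share 112 exonic bases at their starts; the annotation names 5 pseudogenes of Hspd1 and 6 of Hspe1, so how reads were divided among copies is uncertain.

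**Figure D4:**
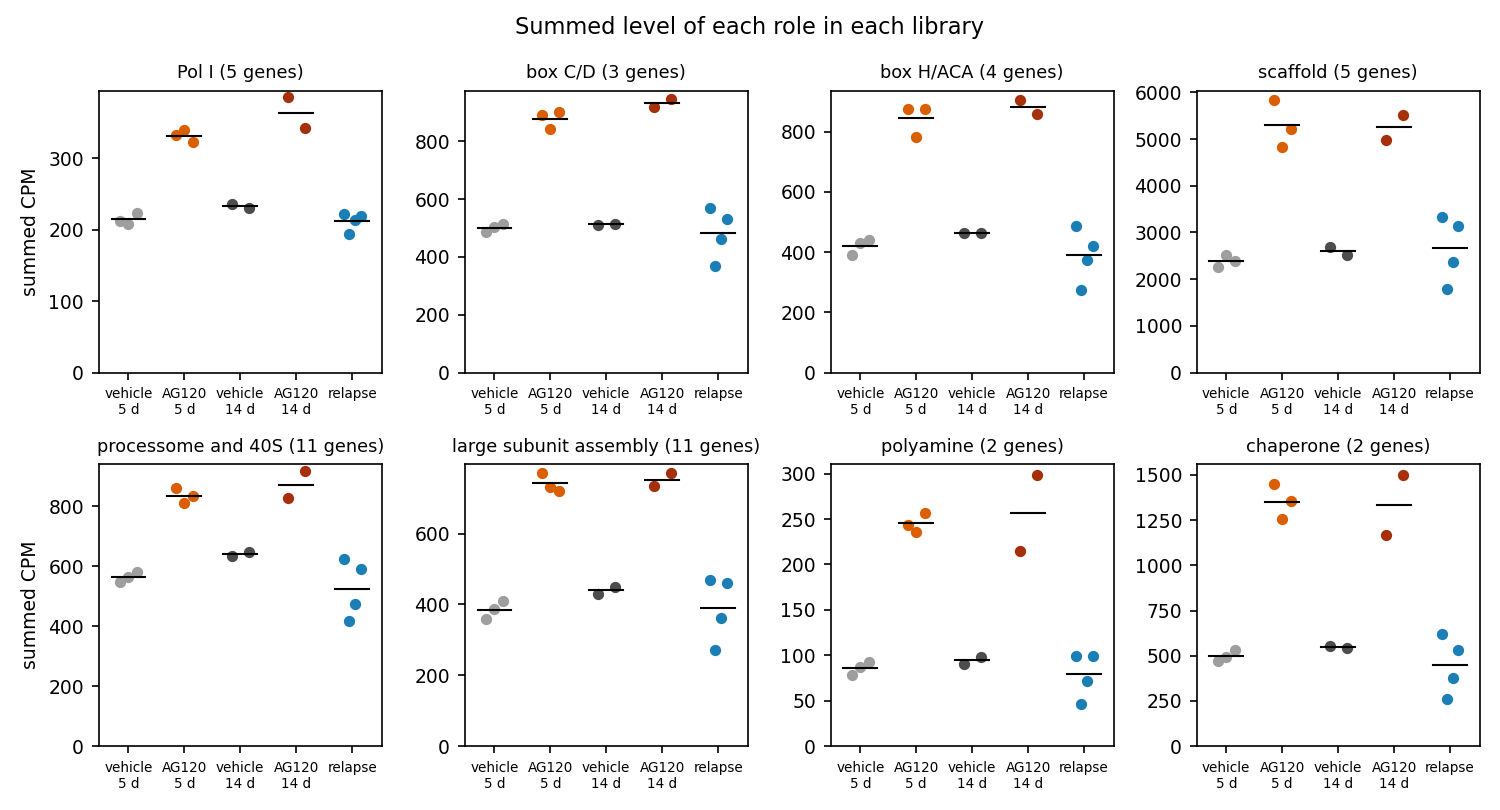
Summed CPM of each role in each library (dot), with the group mean (line) and the vertical axis from 0, for vehicle and AG120 at 5 and 14 days and for relapse. In each of the 8 panels all AG120 dots lie above all vehicle and all relapse dots.

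The effect of treatment at 14 days was next set against that at 5 days. No gene of the set passed the test of the difference in edgeR, where 0.934% of all genes did in either direction; DESeq2 and limma-voom also called none, and 3 genes had an unadjusted p under 0.05, all with a smaller change at 14 days. They were Rrp9 at -0.85 (SE 0.27, adjusted p = 0.184), Nop10 at -0.61 (SE 0.28, adjusted p = 0.379) and Mybbp1a at -0.40 (SE 0.18, adjusted p = 0.369). Over all genes tested, 12.3% had an unadjusted edgeR p under 0.05 in either direction. The median difference was -0.15, against -0.06 over all genes, and 14 of the 43 differences were positive. The 95% intervals were wide: that of Odc1 ran from -0.77 to 0.64 and that of Hspd1 from -0.86 to 0.66. Over the 43 genes the 5-day and 14-day changes, which share no libraries, had a Pearson r of 0.76 across genes and the same sign for 43 of 43; genes are not independent replicates.

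Vehicle libraries at 14 days were slightly above those at 5 days. The difference was positive for 35 of the 43 genes, with a median of 0.17 log2 against -0.00 over all genes, but no gene passed in edgeR, DESeq2 or limma-voom, and of all genes tested 0% passed. An unadjusted p under 0.05 was reached by 3 genes: Rrp9 at 0.65, Polr1b at 0.43 and Pes1 at 0.29. Over all genes tested, 4.79% had an unadjusted edgeR p under 0.05 in either direction. Of the 43 genes 18 had both 14-day vehicle libraries above all 3 of the 5-day ones, against 15.3% of all genes tested.

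Other genes of the pathway, listed with earlier results of these data known, were counted in the same way, with 5-day log2 changes given for those named. At 5 days, of 134 further ribosome biogenesis and exosome genes 103 rose and 1 fell, with a median log2 change of 0.65. For each list of this paragraph, the share over all genes tested at 5 days was 20.1% higher and 19.3% lower. Among other RNA polymerase I genes 8 of 16 rose, among them Cd3eap at 0.98 and the shared subunits Polr2l at 0.99 and Polr2h at 0.93. Other snoRNP genes rose in 9 of 10, led by the assembly factors Znhit3 at 1.28, Ruvbl1 at 0.94 and Naf1 at 0.93. In the small subunit pathway 37 of 47 rose, with Pwp2 at 1.41, the acetyltransferase Nat10 at 1.21 and Utp14a at 1.20. Krr1, also of the processome, fell, at 44.4, 45.1 and 42.4 CPM under AG120 against 83.4, 90.0 and 82.5 CPM in vehicle, by 0.96 on the log2 scale (SE 0.13, edgeR adjusted p = 1.79e-05); at 14 days it fell by 1.34. Large subunit factors rose in 39 of 47, with Nle1 at 1.23, Urb1 at 1.16 and Ftsj3 at 1.14, and RNA exosome genes in 10 of 14, with Dis3 at 0.94. At 14 days 69 of the 134 rose and 2 fell, where 16.8% of all genes tested were called higher and 17.9% lower. Of the cytosolic ribosomal protein genes 3 of 51 rose at 5 days and none fell, with a median of 0.15, and 1 rose and 1 fell at 14 days. The difference between these lists was not tested.

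Lists around the polyamine and chaperonin genes were counted likewise. At 5 days 8 of 8 other mitochondrial chaperones and proteases rose, with Htra2 at 1.39, Hspa9 at 1.10 and Dnaja3 at 1.10, and 12 of 14 cytosolic chaperones, with Hsph1 at 1.62, Cct6a at 1.00 and Hsp90aa1 at 0.98. Of 11 other polyamine genes 3 rose and 1 fell. Of all genes tested 20.1% were called higher and 19.3% lower, so the polyamine count is not a result about that list. Amd1, which supplies the aminopropyl donor, was at 1.09, and Eif5a, the protein that spermidine modifies, at 0.62. Dohh, an enzyme of that modification, was at 0.57, while Oaz2, an antizyme that restrains Odc1, fell by 0.71. Myc was at 21.0, 30.5 and 24.7 CPM under AG120 and 12.2, 7.06 and 9.65 CPM in vehicle at 5 days, apart in every library. At 14 days it was at 15.5 and 11.4 against 17.1 and 16.3 CPM, with both treated libraries below both vehicle libraries. Its log2 change was 1.40 (SE 0.22, adjusted p = 8.67e-05) at 5 days and -0.33 (SE 0.28, adjusted p = 0.384) at 14 days, and the difference between the days passed at -1.74 (edgeR adjusted p = 0.0274). That call was lost when any one of 8 of the 10 AG120 and vehicle libraries was left out, at adjusted p of 0.0609 to 0.151. In vehicle alone Myc at 14 days stood 0.80 log2 above its 5-day level and did not pass (edgeR adjusted p = 0.832, and 0.00856 with only the groups compared). Of the 11 tested genes of the MYC and MAX network 1 other passed at 5 days: Mxd4, a MAX partner that opposes MYC, fell by 2.03.

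At relapse the 43 genes lay around the level of the vehicle libraries, with a wider spread between mice. No gene passed against the mean of the 2 vehicle groups in edgeR, DESeq2 or limma-voom, where 0.183% of all genes did in edgeR in either direction. An unadjusted p under 0.05 was reached by 4 genes, all lower: Nop10 at -0.45, Rrp9 at -0.42, Bysl at -0.38 and Nob1 at -0.39. Over all genes tested, 11.6% had an unadjusted edgeR p under 0.05 in either direction, so these 4 are not a result about the set. The median difference was -0.10 log2, against 0.02 over all genes, and the range ran from -0.49 for Srm to 0.25 for Bop1. Srm was at 16.6, 7.47, 11.1 and 23.3 CPM in the 4 relapse libraries, Ncl at 1752, 851, 1152 and 1526 CPM and Odc1 at 82.8, 38.8, 60.7 and 76.3 CPM. In each of the 3 genes the relapse libraries overlapped the vehicle libraries. Intervals allow changes in either direction: that of Ncl ran from -0.27 to 0.41 and that of Odc1 from -0.48 to 0.27. For none of the 43 genes did the relapse libraries all lie on 1 side of the 5 vehicle libraries. That was rare over all genes tested too, at 1.98% with all relapse libraries above and 1.96% with all below.

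Relapse replicate 2 was the lowest of the 4 relapse libraries in 39 of the 43 genes, while it was the lowest for 30.4% of all genes tested. Its genes stood at a median of 0.65 log2 below the mean of the other 3 libraries, against 0.00 over all genes. Set against the vehicle mean, the median of the 43 genes was 0.16, -0.60, -0.23 and 0.09 log2 in replicates 1 to 4, and 34, 0, 8 and 28 of the genes were above it. The SD of log2 CPM within the relapse group had a median of 0.39 over the 43 genes and 0.32 over all genes, whereas within the 5-day vehicle group it was 0.11 and 0.16. Marker sums differed in the same libraries: megakaryocyte markers summed to 158, 546, 490 and 169 CPM, erythroid markers to 87.1, 182, 511 and 84.0 CPM and granulocyte markers to 2812, 1787, 743 and 1907 CPM in replicates 1 to 4. Their part in the spread was not tested. Without relapse replicate 2 the median difference from vehicle was 0.06 rather than -0.10 log2, and still no gene passed.

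**Figure D5:**
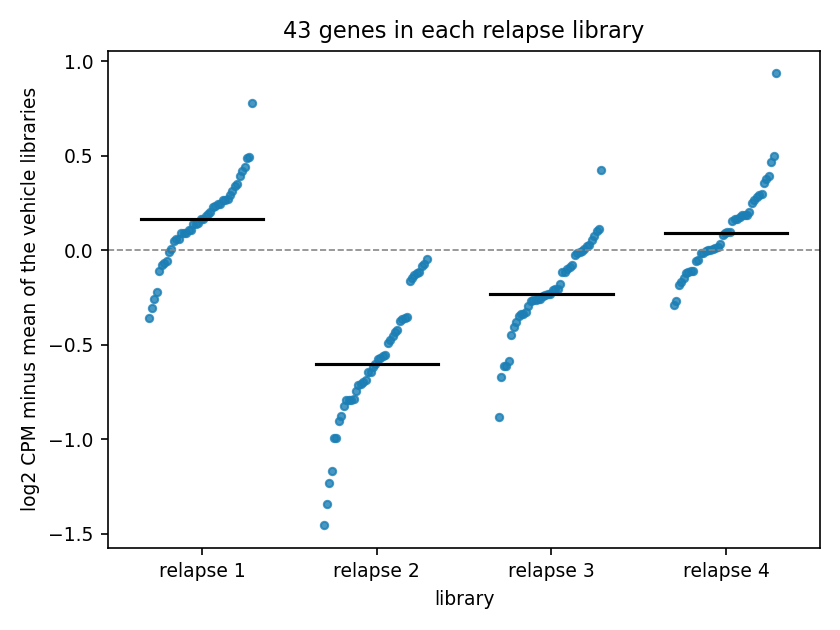
Each of the 43 genes (dot) in the 4 relapse libraries, as log2 CPM minus the mean of the 5 vehicle libraries; the black line is the median over genes and the dashed line the vehicle mean. Medians are 0.16, -0.60, -0.23 and 0.09 in replicates 1 to 4.

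Set against the libraries taken under AG120 (the mean of the 5-day and 14-day groups), 40 of the 43 genes were lower at relapse and none higher, where 26.1% of all genes tested were called lower and 27.9% higher. The median log2 difference was -0.93. Of the 39 genes without the polyamine and chaperonin genes 36 were lower, with a median of -0.90. Rrp9, at 14.9, 8.71, 14.1 and 16.0 CPM in relapse, differed by -1.71 (SE 0.15, adjusted p = 8.28e-08), Odc1 by -1.68 (SE 0.18, adjusted p = 1.98e-06) and Hspd1, at 495, 213, 295 and 414 CPM, by -1.60 (SE 0.19, adjusted p = 9.28e-06). In 38 genes every relapse library was below every AG120 library, which held for 18.9% of all genes tested. Rrp1b, Polr1e and Bysl did not pass, at -0.48 (SE 0.19, adjusted p = 0.051), -0.59 (SE 0.28, adjusted p = 0.0851) and -0.09 (SE 0.12, adjusted p = 0.521). Without relapse replicate 2 the count was 39 and the median -0.80; the call of Bop1 was lost without relapse replicate 2, relapse replicate 4 or AG120 replicate 2 of 14 days. This comparison shares its AG120 libraries with the treatment comparisons and its relapse libraries with the comparison to vehicle, so the 3 are not independent of each other.

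Within the 14 libraries the levels of 42 of the 43 genes moved together, and Bysl did not follow them. The Pearson r of log2 CPM between pairs of genes had a median of 0.90. The lowest pair, with Bysl, was -0.23, and without Bysl the lowest was 0.52. After the group means were taken away the median was 0.70. The relapse libraries weigh heavily in that value. Their median SD of log2 CPM was 0.39 over the 43 genes, against 0.11 in 5-day vehicle and 0.09 in 5-day AG120. The same correlation over all genes was not computed. The points share libraries, scaling and the treatment groups, so these values describe the libraries and carry no test.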

How the data were processed

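RNA of 14 libraries, 1 mouse each, was read with the QuantSeq 3' kit, and the deposited table holds raw gene counts. The submitters' processing notes name the mm10 build, edgeR 3.28.1 and limma 3.42.2 under R 3.6.2, bcl2fastq 2.17.1.14, cutadapt 1.14, HISAT2 2.1.0, and featureCounts from Subread 1.6.3; whether the authors' counts used strand is not given in the sources used here. Of 52636 Ensembl gene IDs 52403 were given a symbol. A 3' tag count is not divided by gene length, so levels are compared between libraries and not between genes.

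Genes were filtered with filterByExpr (minimum count 10), scaled with TMM and tested with edgeR 4.0.16 (robust quasi-likelihood fit, R 4.3.3) in 1 model with 5 groups and 9 residual degrees of freedom, so groups of 2 borrow the spread of the others. P-values were adjusted by Benjamini and Hochberg over 11994 genes, with a threshold of 0.05. Log2 values of CPM used a prior count of 2 for correlations. Standard errors come from the F statistic, and intervals are 95%. Alternatives were RLE, upper quartile and no composition scaling, ribosomal RNA models taken out, no filter, DESeq2 1.42.0, limma-voom 3.58.1, only the groups compared, thinned libraries, a replicate block, and leaving out each library. The procedure was tested on simulated data.

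The 43 genes, the pathway and the marker lists were chosen with earlier results of these data known. Values in every library are given, per role, for the genes with the highest and the lowest 5-day change and the highest mean CPM, and for any that passed between days, at relapse against vehicle or between vehicle times. From each pathway list up to 3 called genes per direction are given, ranked by 5-day change, and Myc is always given; further library values were added after they were seen. Libraries of a group did not repeat each other: the chi-square per gene between replicates ran from 1.77 to 16.3. Positions and overlaps are from GENCODE M21 and promoters from RefSeq, both on GRCm38, the assembly of mm10.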

Additional observations from a re-analysis of the deposited data

Results flagged for a closer look

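Wdr12, a large subunit assembly gene, stood out in the relapse group: replicate 2 was at 47.3 CPM and the nearest library at 64.9 CPM, a gap that took up 0.849 of the range of the 4 libraries and passed Dixon's 95% critical value. Relapse was the only group large enough to be looked at in this way, and chance flags about 1 in 20 of the 43 genes examined. Replicate 2 was also the lowest relapse library for 39 of the 43 genes.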

How the results depend on the processing

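No gene that passed in the main test or an alternative changed direction between them. The median of the 43 genes at relapse against vehicle, where no gene passed, changed sign without relapse replicate 2, from -0.10 to 0.06, with 25 rather than 11 genes above 0. The number of genes higher under AG120 was 39 to 42 at 5 days and 20 to 36 at 14 days when 1 library was left out, and under the other settings with all 43 genes 38 (thinned libraries) to 42 at 5 days and 26 (no filter) to 37 (only the groups compared) at 14 days. Without the 4 polyamine and chaperonin genes, a restriction chosen after the results were seen, 38 of 39 were higher at 5 days, 29 at 14 days and 36 lower at relapse against AG120. At 5 days 1 gene, Bysl, was called lower with upper quartile scaling, without composition scaling, without a filter and with only the groups compared, and 0 to 1 with 1 library left out (1 without relapse replicate 1, 2 or 3). For the difference between the days 1 gene (Rrp9) was called lower without a filter, 3 (Nop10, Rrp9 and Rrp1b) with only the groups compared, and 0 to 1 with 1 library left out. Without a filter 1 gene (Nop10) was lower at relapse than in vehicle. With only the groups compared 3 genes (Nolc1, Rrp9 and Rrp1b) were higher in vehicle at 14 than at 5 days. At relapse against AG120, 39 to 41 genes were lower with 1 library left out. The cause of these differences was not tested.

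A replicate block gave 42 genes higher at 5 days, 34 at 14 days and 41 lower at relapse against AG120, and 0 in the other comparisons. Libraries with the same number in 2 groups showed little shared deviation (median r of 0.01 over 23 pairs, from -0.21 to 0.11). Deviations within a small group are tied to each other, so these values cannot settle whether the numbers pair mice.

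Without composition scaling the median of all genes moved to -0.10 at 5 days, -0.11 at 14 days and 0.10 at relapse against AG120; medians of the 43 genes were then 0.80, 0.69 and -0.85. With 1259982 to 3358874 counts outside ribosomal RNA per library, and 2 libraries a group at 14 days, small changes of genes counted at a few CPM could not be resolved.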

Other observations

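Cell cycle genes were counted for comparison, as lists of 15 DNA replication and 11 mitosis genes. At 5 days 5 of 15 replication and 7 of 11 mitosis genes rose under AG120 in edgeR, where 20.1% of all genes tested did, and at 14 days 4 of 15 and 4 of 11, against 16.8%. At relapse against AG120 12 of 15 and 7 of 11 were lower, against 26.1%. These libraries are those of the report, and the relation to the ribosome biogenesis genes was not tested.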
